A study of Homo sapiens with 12 samples.

Results

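The genes described here are 30 listed genes of cholesterol and fatty acid synthesis, of which 29 were found by their Ensembl identifier among the 57879 identifiers of each expression file. ACACA, acetyl-CoA carboxylase, was not matched to a row and is not analysed here. All 29 passed the filter on low values, and the lowest value of any of them was 1.57 FPKM (fragments scaled by transcript length and library size), for STARD4, so none entered the tests through 1 group alone. They are 8 genes of the steps that lead through mevalonate to farnesyl and geranylgeranyl diphosphate, 11 genes of the steps that lead from squalene to cholesterol, 4 genes of sterol sensing and transport, and 6 genes of fatty acid synthesis and desaturation.

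RNA was sequenced from A549, a human lung adenocarcinoma cell line kept in DMEM with fetal bovine serum, after stable lentiviral transduction. The groups are TIF1γ, carrying an expression construct for TIF1γ (the product of TRIM33), its empty-vector control (vector), sh-TAF15, carrying an shRNA against TAF15, and the shRNA control (sh-NC). The labels name 12 samples, 3 in each of the 4 groups, and a file was used for 8 of them, namely TIF1γ replicates 2 and 3, vector replicates 1, 2 and 3, sh-TAF15 replicates 2 and 3, and sh-NC replicate 2. The labels call the replicates biological and do not say whether a line was 1 clone or a pool, so p-values measure the spread between these libraries. The other 4 samples are not analysed here.

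Cells build cholesterol from acetyl-CoA. HMG-CoA synthase is among the enzymes that lead to mevalonate, which is phosphorylated and joined into farnesyl diphosphate, and squalene synthase commits that product to sterols. The SREBP transcription factors, held in the endoplasmic reticulum by INSIG proteins when sterol is plentiful and cut free when it is scarce, switch on most of these genes, SREBF2 mainly the sterol steps and SREBF1 mainly the fatty acid steps. SREBP binds sterol regulatory elements and works together with NF-Y, which binds CCAAT boxes.

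Levels between genes are compared here as deposited FPKM, which is per length. In the vector libraries FDPS, farnesyl diphosphate synthase, had the highest mean of the 29 at 294 ± 101 FPKM, followed by EBP, a sterol isomerase, at 266 ± 87.6 FPKM (SD, n = 3 each). FADS2, the delta-6 desaturase, averaged 218 ± 30.2 FPKM and FDFT1, squalene synthase, 185 ± 41.6 FPKM in the same libraries. At the other end SC5D, a late sterol desaturase, averaged 4.76 ± 1.64 FPKM and STARD4, a cytosolic sterol carrier, 4.13 ± 1.01 FPKM. The spread within vector was wide for several genes. All genes share these libraries, so that spread is not the error of a difference between genes. FDPS was above EBP in each of the 3 vector libraries, as was SQLE (44.6 ± 21.7 FPKM) above HMGCS1 (34.8 ± 16.6 FPKM). The order of neighbours was not tested.

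**Figure D1:**
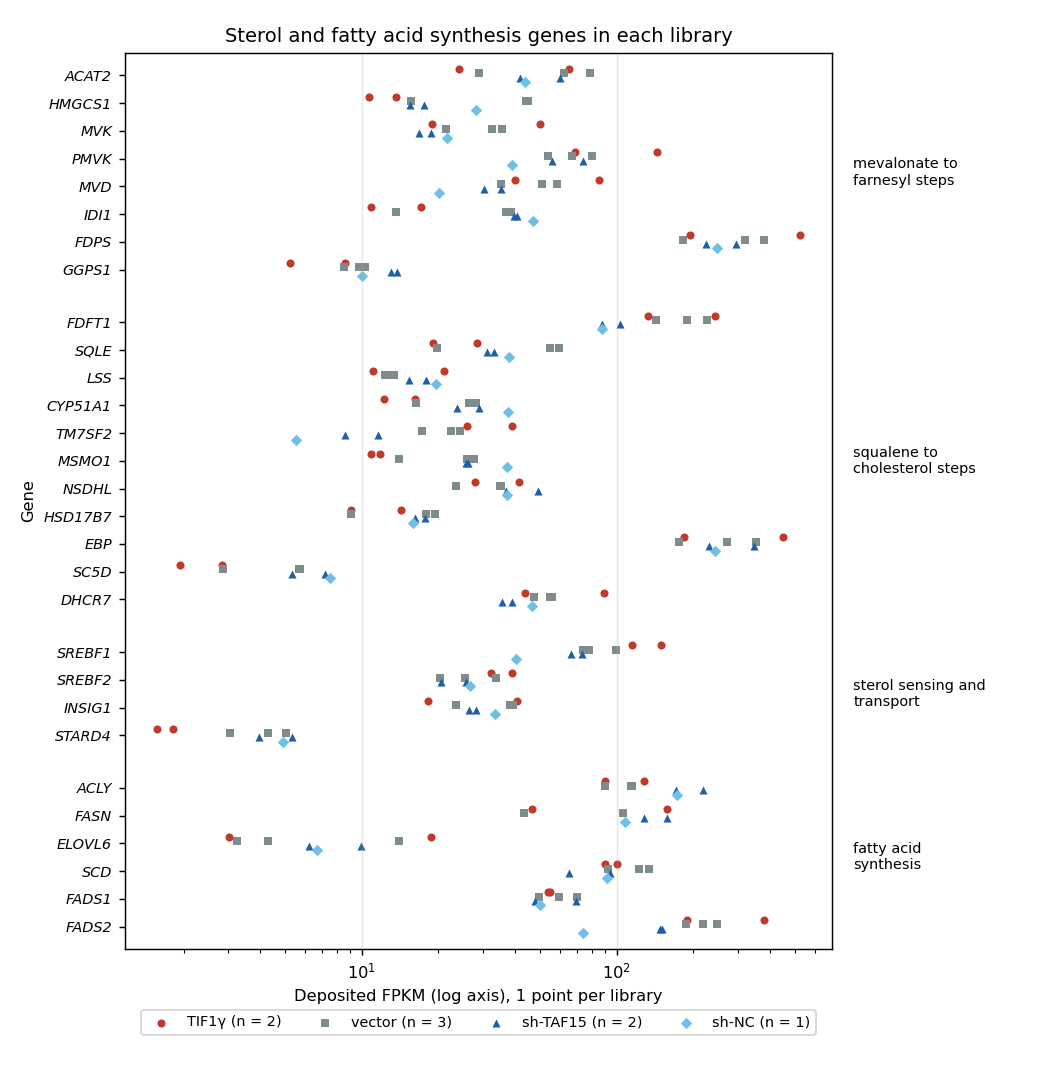
Deposited FPKM on a log axis for each of the 29 genes, with 1 point per library and the genes grouped by step. FDPS and EBP lie at the right and STARD4 and SC5D at the left. In HMGCS1 and IDI1 1 of the 3 vector squares, replicate 3, sits apart at 15.7 and 13.6 FPKM.

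Promoter sequence was read from RefSeq on build GRCh38.p14, from 250 bases before to 50 after each annotated start, which matched 26 of the 30 genes with 37 promoters (ACAT2, FASN, FDFT1 and SQLE had no entry). Letters were searched on both strands. CCAAT stood in 25 of the 37 promoters (67.6%), in 21 of the 26 genes, against 34.6% of all 35116 promoters in the table. CACGTG stood in 4 of the 37 (10.8%) against 7.26% of all. The sterol regulatory element, searched as TCACNCCAC, was found in 1 of the 37, that of SREBF2, and in 1.13% of all promoters, and its absence elsewhere says only that these letters were not in the window. A match describes letters and is not a site shown to be bound.

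The stretches below show the CCAAT match nearest upstream of the start in some of the members with such a match, together with the sterol element of SREBF2. CYP51A1, PMVK, SREBF1, ELOVL6 and FADS1, also described further on, had no CCAAT in the window, and that of FADS2 lay after the start. Each is written along the gene's own strand, with the motif in capitals (ATTGG is CCAAT on the opposite strand). In SREBF2, at chr22:41832952-41833023 on the plus strand, the capitals mark first TCACCCCAC, which begins 133 bases before the start, and then the CCAAT match that begins 106 bases before it, and the 2 matches do not overlap. HMGCS1 lies at chr5:43313488-43313532 on the minus strand, with the match 100 bases before the start, and IDI1 at chr10:1048949-1048993 on the minus strand, with the match 87 bases before. Another IDI1 promoter, not shown, has its nearest match 117 bases before its start. MSMO1 lies at chr4:165327615-165327659 on the plus strand, with the match 34 bases before the start, and STARD4 at chr5:111512641-111512685 on the minus strand, with the match 130 bases before. MVD lies at chr16:88663152-88663196 on the minus strand, with the match 85 bases before the start, and TM7SF2 at chr11:65111778-65111822 on the plus strand, with the match 74 bases before.
SREBF2: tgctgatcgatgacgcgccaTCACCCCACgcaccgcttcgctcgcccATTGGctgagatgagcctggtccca
HMGCS1: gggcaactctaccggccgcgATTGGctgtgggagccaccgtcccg
IDI1: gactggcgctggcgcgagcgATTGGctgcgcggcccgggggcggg
MSMO1: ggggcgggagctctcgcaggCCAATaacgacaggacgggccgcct
STARD4: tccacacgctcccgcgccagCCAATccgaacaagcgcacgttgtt
MVD: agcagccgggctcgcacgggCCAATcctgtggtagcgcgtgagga
TM7SF2: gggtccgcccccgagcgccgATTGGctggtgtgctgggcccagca

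TRIM33, the gene that encodes TIF1γ, had 8.03 and 6.14 FPKM with the construct and 2.23, 2.10 and 1.27 FPKM in vector, with no overlap, and its log2 fold change of 1.45 did not pass the test (SE 0.27, limma adjusted p = 0.129). TAF15 could not be matched to a row, so the knockdown was not checked. The FPKM of a library summed to between 881293 and 1356634, and 12132 to 12622 genes reached 1 FPKM. Vector replicate 3 stood apart from its group. Across genes its log2 levels correlated at r = 0.982 with TIF1γ replicate 3, against 0.973 with vector replicate 1 and 0.963 with vector replicate 2. The TIF1γ libraries stood apart as well, at r = 0.971 with each other. Results that rest on vector replicate 3 are given with and without it. Of the epithelial markers, KRT7 stood between 1516 and 3746 FPKM in every library, whereas KRT8 and KRT18 were listed at 0 in both TIF1γ libraries and at 1129 FPKM or more in every other, and such genes, whose 0 may be a failed estimate, were set aside from the tests. The 6 epithelial markers summed to 2430 to 3819 FPKM in TIF1γ and 11685 to 13499 FPKM in vector. That gap comes from the 2 keratins listed at 0. The other 4 markers summed to 2430 to 3819 FPKM in TIF1γ and 1817 to 2031 FPKM in vector, nearly all of it KRT7. Of the 8 alveolar type 2 markers, SFTPA1, SFTPA2, SFTPB, SFTPD and NKX2-1 were under 1 FPKM in all 8 libraries and SFTPC reached 1.42 FPKM at most, whereas ABCA3 stood at 2.70 to 8.21 FPKM and LPCAT1 at 16.5 to 66.1 FPKM. The leukocyte markers PTPRC and CD3E were at or near 0 in all 8 libraries. The 5 leukocyte markers summed to 29.1 to 35.1 FPKM in TIF1γ and 11.7 to 23.6 FPKM in vector, nearly all of it CD14, and the part of these markers in the results was not tested.

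The first comparison set cells with the TIF1γ construct against cells with the empty vector. A number of mevalonate and sterol genes stood lowest in the TIF1γ libraries. HMGCS1, IDI1, SQLE, MSMO1, CYP51A1, SC5D and STARD4 had mean log2 fold changes between −0.75 and −1.40, but vector replicate 3 lay near the TIF1γ libraries for most of them. None of the 29 genes was called at a limma adjusted p under 0.05, against 0.0216% of the 13907 genes tested, which is 3 genes. In bulk RNA, fewer cells of a kind and less RNA per cell cannot be told apart. At an unadjusted p under 0.05 there were 7 of the 29 (24.1%), against 19.9% of all genes. The median log2 fold change of the 29 was −0.06, with 13 above 0 and 16 below, and that of all genes was 0.02.

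HMGCS1, the synthase that makes HMG-CoA, had 13.6 and 10.7 FPKM with TIF1γ, against 44.7, 44.1 and 15.7 FPKM with vector. The groups did not overlap, and vector replicate 3 was close to the upper TIF1γ value. Its log2 fold change was −1.40 (SE 0.37, limma adjusted p = 0.200). IDI1, the isomerase that makes dimethylallyl diphosphate, had 17.1 and 10.9 FPKM with TIF1γ, against 36.8, 38.6 and 13.6 FPKM with vector. Vector replicate 3 lay between the TIF1γ libraries, so the groups overlapped, and the log2 fold change was −1.01 (SE 0.37, adjusted p = 0.209 by limma).

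The other early steps did not share that pattern. PMVK, the phosphomevalonate kinase, had 144 and 68.3 FPKM with TIF1γ, against 66.5, 79.9 and 53.7 FPKM with vector. MVD, the decarboxylase that follows it, had 85.1 and 39.9 FPKM with TIF1γ, against 58.2, 51.03 and 35.1 FPKM with vector. For both genes TIF1γ replicate 2 was the highest of the 5 libraries and TIF1γ replicate 3 lay among the vector libraries. MVK, the kinase before them, had 50.03 and 18.9 FPKM with TIF1γ, against 32.3, 35.5 and 21.4 FPKM with vector. The TIF1γ libraries thus enclosed the vector range of MVK. FDPS had 523 and 194 FPKM with TIF1γ, against 319.6, 379 and 182 FPKM with vector. ACAT2, a thiolase that supplies acetoacetyl-CoA, had 65.03 and 24.04 FPKM with TIF1γ, against 62.4, 78.8 and 28.8 FPKM with vector. In all 5 genes TIF1γ replicate 2 was well above TIF1γ replicate 3, and log2 fold changes ran from −0.47 for ACAT2 to 0.50 for PMVK. GGPS1, which makes geranylgeranyl diphosphate, had 5.23 and 8.61 FPKM with TIF1γ, against 10.3, 9.73 and 8.51 FPKM with vector. It was apart from vector only on the scaled values, with a log2 fold change of −0.51 (SE 0.27, limma adjusted p = 0.299).

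Among the squalene to cholesterol steps, MSMO1, CYP51A1, SC5D and SQLE stood lowest. MSMO1, the sterol methyl oxidase, had 11.8 and 10.9 FPKM with TIF1γ, against 27.5, 25.9 and 14.02 FPKM with vector, with no overlap. CYP51A1, the lanosterol demethylase, had 12.2 and 16.1 FPKM with TIF1γ, against 28.1, 26.3 and 16.4 FPKM with vector. Here the groups were apart by a small margin at vector replicate 3. SC5D had 1.93 and 2.83 FPKM with TIF1γ, against 5.74, 5.68 and 2.87 FPKM with vector, again close at replicate 3. SQLE, squalene epoxidase, had 28.3 and 19.1 FPKM with TIF1γ, against 54.6, 59.4 and 19.7 FPKM with vector. For SQLE vector replicate 3 lay between the TIF1γ libraries. The log2 fold changes were −0.95 for MSMO1, −0.75 for CYP51A1, −0.80 for SC5D and −0.84 for SQLE, with SE between 0.27 and 0.38 and limma adjusted p from 0.200 to 0.253.

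The remaining genes of those steps stood nearer to 0. TM7SF2, a sterol reductase, had 38.7 and 25.8 FPKM with TIF1γ, against 22.3, 17.2 and 24.3 FPKM with vector. Both TIF1γ libraries were above all 3 vector libraries (log2 fold change 0.48, SE 0.26, limma adjusted p = 0.297). HSD17B7, a sterol ketone reductase, had 14.2 and 9.04 FPKM with TIF1γ, against 17.9, 19.3 and 9.08 FPKM with vector. Its lowest TIF1γ and lowest vector values were nearly equal (log2 fold change −0.42, SE 0.30). FDFT1 had 244 and 133 FPKM with TIF1γ, against 188, 226 and 142 FPKM with vector. LSS, the cyclase that makes lanosterol, had 21.1 and 11.1 FPKM with TIF1γ, against 13.4, 12.4 and 13.3 FPKM with vector. In both the TIF1γ libraries enclosed the vector range as deposited FPKM, and on the scaled values this held for LSS only. NSDHL, a sterol dehydrogenase, had 41.4 and 27.9 FPKM with TIF1γ, against 34.7, 35.2 and 23.4 FPKM with vector. EBP had 449 and 184 FPKM with TIF1γ, against 271, 351 and 176 FPKM with vector. DHCR7, which makes cholesterol in the last step of one branch, had 88.97 and 43.8 FPKM with TIF1γ, against 55.00, 47.3 and 55.9 FPKM with vector. Across FDFT1, LSS, NSDHL, EBP and DHCR7 the groups overlapped, and log2 fold changes ran from −0.10 for FDFT1 to 0.16 for DHCR7.

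STARD4 had 1.82 and 1.57 FPKM with TIF1γ, against 5.05, 4.30 and 3.05 FPKM with vector. The groups did not overlap even at vector replicate 3, and the log2 fold change was −0.98 (SE 0.28, limma adjusted p = 0.200). SREBF1, which encodes the SREBP of fatty acid synthesis, had 149 and 115 FPKM with TIF1γ, against 78.1, 73.9 and 99.3 FPKM with vector. Both TIF1γ libraries were above all vector libraries (log2 fold change 0.57, SE 0.24, limma adjusted p = 0.226). SREBF2 had 38.9 and 32.2 FPKM with TIF1γ, against 25.4, 20.4 and 33.5 FPKM with vector, with vector replicate 3 between the TIF1γ libraries. On the scaled values vector replicate 3 was slightly above both TIF1γ libraries. INSIG1, which retains the SREBPs, had 40.8 and 18.3 FPKM with TIF1γ, against 38.02, 39.2 and 23.4 FPKM with vector. The TIF1γ libraries enclosed the vector range as deposited FPKM, but on the scaled values the upper TIF1γ library was below the highest vector library.

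In fatty acid synthesis no gene reached an unadjusted p under 0.05. FASN, fatty acid synthase, had 157 and 46.7 FPKM with TIF1γ, against 106, 106 and 43.2 FPKM with vector. ELOVL6, an elongase, had 18.7 and 3.02 FPKM with TIF1γ, against 13.9, 3.24 and 4.27 FPKM with vector. In FASN 1 TIF1γ library and 1 vector library were low, and in ELOVL6 1 library of each group was high, so their groups overlapped widely. SCD, the delta-9 desaturase, had 89.7 and 99.97 FPKM with TIF1γ, against 123, 92.1 and 134 FPKM with vector. ACLY, which makes cytosolic acetyl-CoA, had 128 and 90.4 FPKM with TIF1γ, against 114, 90.3 and 114 FPKM with vector. Their log2 fold changes were −0.36 for SCD, the lowest of the 6 fatty acid genes, and −0.06 for ACLY. FADS1, the delta-5 desaturase, had 53.8 and 54.8 FPKM with TIF1γ, against 59.2, 49.7 and 69.8 FPKM with vector. FADS2 had 377 and 189 FPKM with TIF1γ, against 219, 187 and 248 FPKM with vector. All 6 fatty acid genes overlapped between the groups, with the highest log2 fold change at 0.28 for ELOVL6.

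On the scaled log2 values, 6 of the 29 genes (20.7%) were lower in both TIF1γ libraries than in all 3 vector libraries, namely HMGCS1, GGPS1, CYP51A1, MSMO1, SC5D and STARD4, against 19.3% of all genes. TM7SF2 and SREBF1 were higher in both, which is 6.90% of the 29 against 17.3% of all genes. Both shares lay near or under those of all genes.

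**Figure D2:**
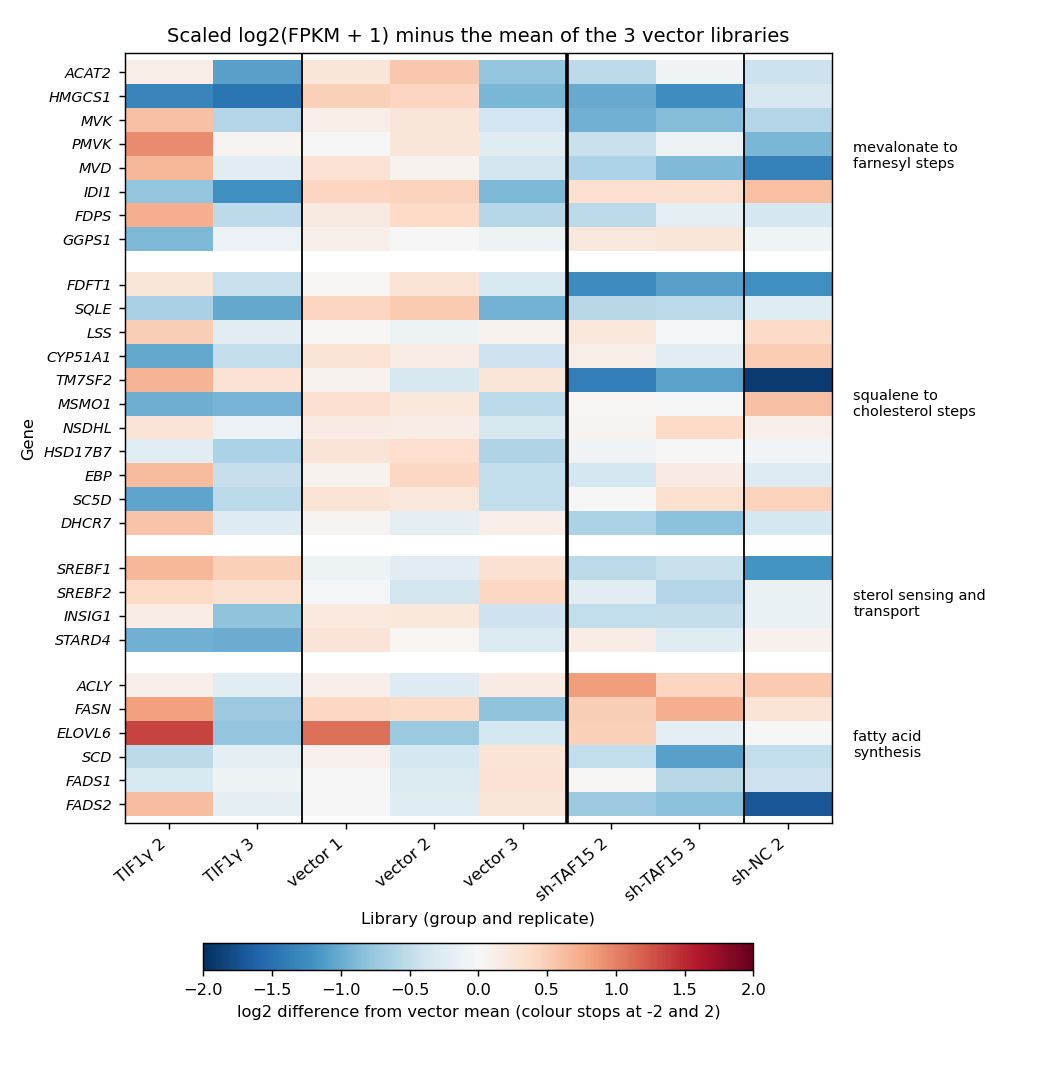
Scaled log2(FPKM + 1) of each gene in each library minus its mean over the 3 vector libraries, with red above and blue below, and the colour stopping at −2 and 2. Vector replicate 3 and TIF1γ replicate 3 are blue for most mevalonate and sterol genes, with medians over the 29 of −0.36 and −0.46, whereas TIF1γ replicate 2 has a median of 0.24.

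Vector replicate 3 stood below the other 2 vector libraries in most genes of sterol synthesis. Its log2 level minus the mean of vector replicates 1 and 2 had a median of −0.54 over the 29 genes, and it was below 0 for 20 of them, against a median of 0.01 over all genes. All 8 genes of the mevalonate to farnesyl steps were below 0, with a median of −0.71, as were 8 of the 11 of the squalene to cholesterol steps, with a median of −0.63. The 6 fatty acid genes had a median of 0.31. On the scaled values 19 of the 29 genes (65.5%) were lower in vector replicate 3 than in both other vector libraries, against 38.0% of all genes. The TIF1γ libraries differed from each other too, since replicate 2 minus replicate 3 had a median of 0.43 over the 29 genes, 23 of them above 0, and −0.08 over all genes. The 2 sh-TAF15 libraries differed by a median of −0.02 over the 29.

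Without vector replicate 3, limma called 4 of the 29 genes lower with TIF1γ (13.8%), against 1.46% of the 13753 genes then tested. They were HMGCS1 (−1.86, adjusted p = 0.0154), IDI1 (−1.46, adjusted p = 0.0417), SQLE (−1.31, adjusted p = 0.0417) and MSMO1 (−1.23, adjusted p = 0.0417), as log2 fold changes. None was called higher, against 0.771% of all genes. Vector replicate 3 was itself low for these 4, by −0.82 (MSMO1) to −1.42 (SQLE) as log2 values against the mean of the other vector libraries. Leaving it out widens the gap and narrows the spread for them, so the share called was partly set by that choice. With TIF1γ replicate 2 left out, the median over the 29 was −0.46 with 25 genes below 0, and with TIF1γ replicate 3 left out it was 0.24 with 11 below 0, so the direction of the median rests on which TIF1γ library is kept. None of the 29 was called by limma in either case, and an unadjusted p under 0.05 was reached by 6 of them (20.7%) without replicate 2, against 7.44% of all genes, and by 11 (37.9%) without replicate 3, against 30.6% of all genes.

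The fold changes of the 29 genes moved with the GC percent of their transcripts. Across the 29, Spearman's rho between GC percent and the log2 fold change with TIF1γ was 0.83, and across all genes it was 0.74, a description over genes that share the same libraries. The 13 genes under 50% GC had a median log2 fold change of −0.75, with 12 below 0, and the 16 genes from 50% upward had a median of 0.12, with 12 above 0. HMGCS1, MSMO1, STARD4 and SC5D had transcript GC of 40.2%, 38.1%, 34.2% and 38.6%, and TM7SF2 and SREBF1 had 64.2% and 62.8%. Over all genes the median log2 fold change was −0.52 under 40% GC and 0.49 above 60%. With the GC trend removed, the log2 fold change of HMGCS1 was −0.95, of MSMO1 −0.45, of STARD4 −0.40, of SREBF1 0.10 and of TM7SF2 −0.02, none of the 29 was called by limma (1 had an unadjusted p under 0.05), and 24 of the 29 were below 0 with a median of −0.20. The part of GC content in these differences was not tested further.

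**Figure D3:**
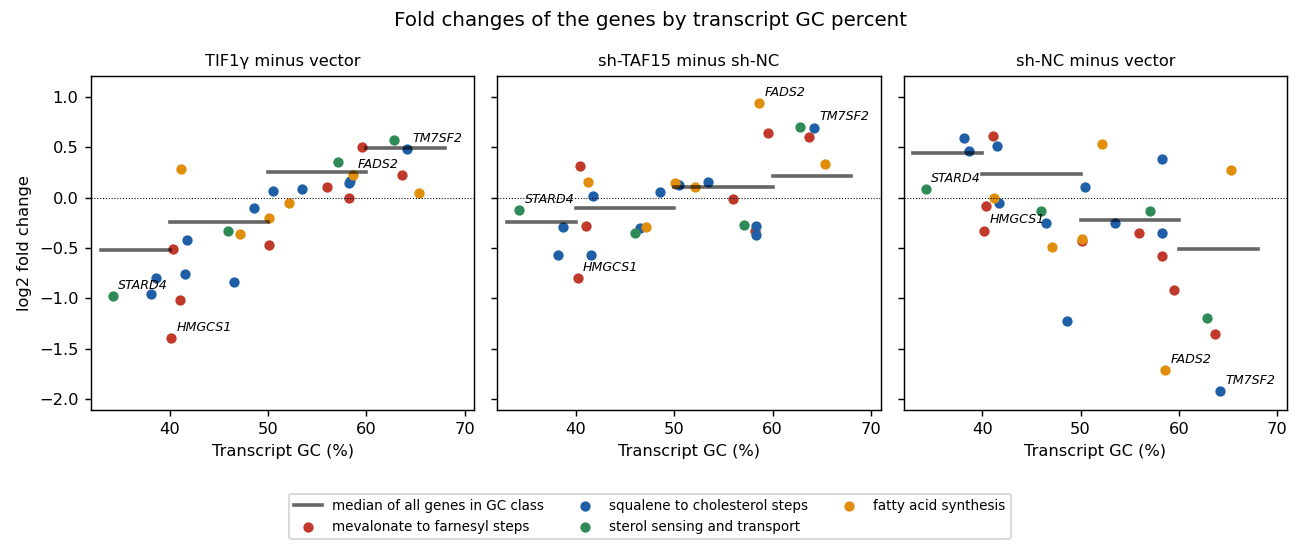
The log2 fold change of each gene against the GC percent of its longest GENCODE 29 transcript, in 3 comparisons, with bars for the median of all genes in 4 GC classes. In the left panel, TIF1γ minus vector, 12 of the 13 genes under 50% GC lie below 0 and 12 of the 16 others above it, and in the right panel, sh-NC minus vector, TM7SF2 and FADS2 lie farthest below 0.

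The second comparison set cells with the shRNA against TAF15 against the control shRNA. In it 15 of the 29 genes stood above 0 and 14 below, with a median log2 fold change of 0.02 over the 29 and −0.003 over all genes. FADS2, SREBF1, TM7SF2 and PMVK had the highest fold changes and HMGCS1 the lowest. None of the 29 was called by limma, against 0.0575% of all genes, which is 8 genes, and 2 of the 29 (6.90%) had an unadjusted p under 0.05, against 5.64% of all genes. Because sh-NC has 1 library, the error comes from the spread within the other groups, and SE for the 29 genes ran from 0.32 for SREBF1 to 1.09 for ELOVL6.

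FADS2 had 150.4 and 147 FPKM in sh-TAF15, against 74.1 FPKM in sh-NC. Both sh-TAF15 libraries were above the single sh-NC library, with a log2 fold change of 0.93 (SE 0.37, limma adjusted p = 0.773). SREBF1 had 66.1 and 72.9 FPKM in sh-TAF15, against 40.4 FPKM in sh-NC. TM7SF2 had 8.63 and 11.6 FPKM in sh-TAF15, against 5.51 FPKM in sh-NC. For these 2 genes as well both sh-TAF15 libraries were above sh-NC, with log2 fold changes of 0.70 for SREBF1 and 0.69 for TM7SF2. PMVK had 55.7 and 73.7 FPKM in sh-TAF15, against 39.03 FPKM in sh-NC. MVD had 35.03 and 30.1 FPKM in sh-TAF15, against 20.1 FPKM in sh-NC. Both mevalonate genes stood above sh-NC in both libraries, with log2 fold changes of 0.64 for PMVK and 0.60 for MVD. Of these 5 genes, all but PMVK were also called between the control lines described below, and both comparisons use the same sh-NC library.

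HMGCS1 had 17.6 and 15.5 FPKM in sh-TAF15, against 28.1 FPKM in sh-NC. Both sh-TAF15 libraries were below sh-NC (log2 fold change −0.79, SE 0.50, limma adjusted p = 0.944). MSMO1 had 25.7 and 26.1 FPKM in sh-TAF15, against 37.3 FPKM in sh-NC. CYP51A1 had 28.9 and 23.6 FPKM in sh-TAF15, against 37.5 FPKM in sh-NC. Both sterol oxidases were below sh-NC in both libraries, each with a log2 fold change of −0.57. IDI1 had 39.5 and 40.7 FPKM in sh-TAF15, against 46.9 FPKM in sh-NC. SQLE had 31.1 and 32.98 FPKM in sh-TAF15, against 37.9 FPKM in sh-NC. INSIG1 had 26.5 and 28.01 FPKM in sh-TAF15, against 33.5 FPKM in sh-NC. These 3 were lower in both sh-TAF15 libraries by less than their SE. DHCR7 had 38.9 and 35.6 FPKM in sh-TAF15, against 46.4 FPKM in sh-NC, also lower in both (log2 fold change −0.37, SE 0.36).

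Genes whose fold change was smaller than its SE included ACLY, FASN and FDFT1. ACLY had 218 and 172 FPKM in sh-TAF15, against 172 FPKM in sh-NC. FASN had 128 and 157 FPKM in sh-TAF15, against 107 FPKM in sh-NC. FDFT1 had 87.3 and 103 FPKM in sh-TAF15, against 87.5 FPKM in sh-NC. Their log2 fold changes were 0.10 for ACLY, 0.33 for FASN and 0.05 for FDFT1. STARD4 had 5.35 and 3.96 FPKM in sh-TAF15, against 4.91 FPKM in sh-NC, on both sides of the control. SCD had 94.1 and 64.9 FPKM in sh-TAF15, against 91.7 FPKM in sh-NC. On the scaled values 11 of the 29 genes (37.9%) were lower in both sh-TAF15 libraries than in sh-NC, against 37.8% of all genes, and 7 (24.1%) were higher in both, against 35.3%. Spearman's rho with transcript GC was 0.57 across the 29 and 0.38 across all genes. The 8 alveolar type 2 markers summed to 64.01 to 70.4 FPKM in sh-TAF15 and 31.01 FPKM in sh-NC, most of it LPCAT1, with SFTPA1 at 0 in all of them, and their part in the result was not tested.

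**Figure D4:**
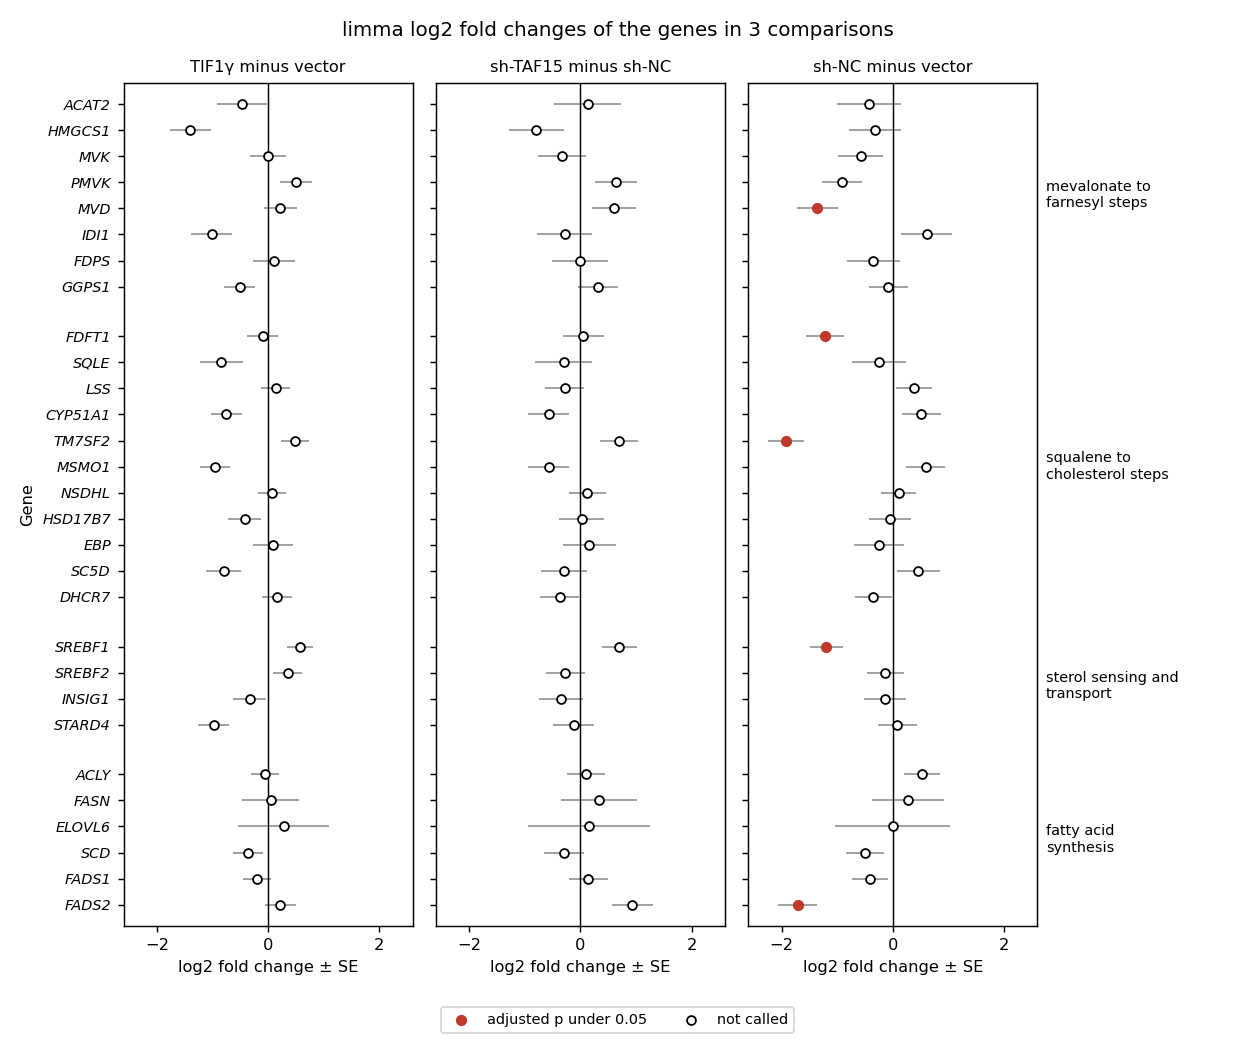
Limma log2 fold changes with their SE as horizontal bars for each of the 29 genes in 3 comparisons, filled red where the adjusted p is under 0.05. The filled points are MVD, FDFT1, TM7SF2, SREBF1 and FADS2, all in the panel of sh-NC minus vector, between −1.92 and −1.19.

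The third comparison set the control lines of the 2 constructs against each other. TM7SF2, FADS2, MVD, FDFT1 and SREBF1 fell in sh-NC against vector, and none of the 29 rose. The 5 are 17.2% of the 29, against 7.21% of the 13907 genes, and the 0 called higher compare with 3.78% of all genes. An unadjusted p under 0.05 was reached by 6 of the 29 (20.7%), against 28.0% of all genes. The median log2 fold change of the 29 was −0.25, with 20 below 0, and that of all genes was 0.01. Without vector replicate 1 the median of the 29 was −0.08, without replicate 2 −0.10 and without replicate 3 −0.35. Without scaling it was −0.08 with 15 below 0, and that of all genes was 0.16. Spearman's rho with transcript GC was −0.55 across the 29 and −0.44 across all genes. This comparison shares the vector libraries with the TIF1γ comparison and the sh-NC library with the sh-TAF15 comparison, it rests on 1 sh-NC library, and construct and cell line cannot be told apart in it.

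TM7SF2 (ENSG00000149809, chromosome 11) stood at 5.51 FPKM in sh-NC and 22.3, 17.2 and 24.3 FPKM in vector. The sh-NC library was below all 3 vector libraries, and the log2 fold change was −1.92 (SE 0.33, limma adjusted p = 0.00208). FADS2 (ENSG00000134824, chromosome 11) stood at 74.1 FPKM in sh-NC and 219, 187 and 248 FPKM in vector, a log2 fold change of −1.71 (SE 0.35, limma adjusted p = 0.00720). Both genes had intermediate values in the sh-TAF15 libraries, above sh-NC and below every vector and TIF1γ library.

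MVD (ENSG00000167508, chromosome 16) stood at 20.1 FPKM in sh-NC and 58.2, 51.03 and 35.1 FPKM in vector (log2 fold change −1.36, SE 0.37, limma adjusted p = 0.0318). FDFT1 (ENSG00000079459, chromosome 8) stood at 87.5 FPKM in sh-NC and 188, 226 and 142 FPKM in vector (log2 fold change −1.22, SE 0.34, limma adjusted p = 0.0363). SREBF1 (ENSG00000072310, chromosome 17) stood at 40.4 FPKM in sh-NC and 78.1, 73.9 and 99.3 FPKM in vector (log2 fold change −1.19, SE 0.30, limma adjusted p = 0.0215). In each of the 3 the sh-NC library lay below all vector libraries, and the sh-TAF15 libraries of FDFT1, at 87.3 and 103 FPKM, were about as low as sh-NC. With the GC trend removed, FADS2 (−1.35, limma adjusted p = 0.0191) and TM7SF2 (−1.40, limma adjusted p = 0.00880) were still called, as 2 of the 29 (6.90%) against 5.96% of all genes, whereas MVD, FDFT1 and SREBF1 were not (limma adjusted p = 0.198, 0.0505 and 0.0811). Without scaling, MVD, FDFT1 and SREBF1 were likewise not called. FDFT1 and MVD were not called without vector replicate 1 (limma adjusted p = 0.0724 and 0.0659), nor FDFT1 without vector replicate 2 (0.0616).

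IDI1 and 4 sterol enzymes stood on the other side of vector. IDI1 had 46.9 FPKM in sh-NC, against 36.8, 38.6 and 13.6 FPKM in vector. MSMO1 had 37.3 FPKM in sh-NC, against 27.5, 25.9 and 14.02 FPKM in vector. In both the sh-NC library was above every vector library. CYP51A1 had 37.5 FPKM in sh-NC, against 28.1, 26.3 and 16.4 FPKM in vector. SC5D had 7.51 FPKM in sh-NC, against 5.74, 5.68 and 2.87 FPKM in vector. These too were above every vector library, as was LSS with 19.5 FPKM in sh-NC, against 13.4, 12.4 and 13.3 FPKM in vector. The log2 fold changes of 0.61 for IDI1, 0.59 for MSMO1, 0.51 for CYP51A1, 0.46 for SC5D and 0.38 for LSS did not pass the test. ACLY had 172 FPKM in sh-NC, against 114, 90.3 and 114 FPKM in vector, also above all of them (log2 fold change 0.53, SE 0.32, limma adjusted p = 0.292). PMVK had 39.03 FPKM in sh-NC, against 66.5, 79.9 and 53.7 FPKM in vector, below all of them, with a log2 fold change of −0.91 that did not pass the test (SE 0.36, limma adjusted p = 0.117). HMGCS1 had 28.1 FPKM in sh-NC, against 44.7, 44.1 and 15.7 FPKM in vector, within the vector range.

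On the scaled values 10 of the 29 genes (34.5%) were lower in sh-NC than in all 3 vector libraries, against 36.3% of all genes, and 6 (20.7%) were higher, against 37.7%. Taking the sh-TAF15 and sh-NC libraries as 1 set against the vector and TIF1γ libraries, 6 of the 29 genes (20.7%) were lower in all 3 than in the other 5 on the scaled values, against 17.7% of all genes. They were MVD, FDFT1, TM7SF2, DHCR7, SREBF1 and FADS2. ACLY alone was higher in all 3, which is 3.45% of the 29 against 16.3% of all genes.

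Marker genes also stood apart between these lines. The 6 epithelial markers summed to 4233 FPKM in sh-NC and to 11685 to 13499 FPKM in vector, with 3 of 6 at 1 FPKM or more in sh-NC and 6 of 6 in vector. Without KRT8 and KRT18 the sums were 1706 FPKM in sh-NC and 1817 to 2031 FPKM in vector, nearly all of it KRT7. KRT19, CDH1 and EPCAM were each lower in sh-NC than in every vector library. KRT19 had 0.243 FPKM in sh-NC, against 26.9, 30.8 and 41.6 FPKM in vector. CDH1 had 0.857 FPKM in sh-NC, against 5.81, 4.27 and 10.4 FPKM in vector. EPCAM had 0.436 FPKM in sh-NC, against 3.75, 3.20 and 1.80 FPKM in vector. The 6 fibroblast markers summed to 4.13 FPKM in sh-NC and to 0.401 to 1.27 FPKM in vector, with DCN at 0 in all of them. Their part in the differences between the lines was not tested.

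The effect of TIF1γ and the effect of sh-TAF15 were set against each other in the same fit. With all 8 libraries, none of the 29 differed at a limma adjusted p under 0.05, against 0.0431% of all genes. None had an unadjusted p under 0.05, against 3.60% of all genes. The lowest unadjusted p was 0.0896, for STARD4, with a difference of −0.85 (SE 0.47), followed by GGPS1 with −0.83 (SE 0.46), both as log2 values of the TIF1γ effect minus the sh-TAF15 effect. The median difference over the 29 was −0.19, with 22 genes below 0, and that over all genes was −0.005. Without TIF1γ replicate 2 the median was −0.47 with 24 below 0, and without TIF1γ replicate 3 it was 0.003 with 14 below 0. The lean below 0 thus rests on which TIF1γ library is kept. Without vector replicate 3 it was −0.30 with 23 below 0, 5 of the 29 had an unadjusted limma p under 0.05, and none was called. The share of all genes at that p is not given for that fit.

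Of 101 other genes of lipid metabolism in 7 lists, 90 passed the filter on low values. None of the 90 was called by limma with TIF1γ or with sh-TAF15, and 24 with TIF1γ and 5 with sh-TAF15 had an unadjusted p under 0.05, beside 19.9% and 5.64% of all genes. In sh-NC against vector 1 of the 90 was called higher and 8 lower, beside 3.78% and 7.21% of all genes. With TIF1γ the highest median log2 fold change of the 7 lists was 0.49, for 9 genes of LXR and sterol efflux, against 0.02 over all genes. Most of these 9 had transcript GC above 50%. Over all genes the median was 0.25 at 50 to 60% GC and 0.49 above 60%, and the part of GC was not tested.

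NPC1, which moves cholesterol out of lysosomes, and APOE, a lipid carrier protein, both passed the test in sh-NC. NPC1 rose and APOE fell. NPC1 had 44.8 FPKM in sh-NC, against 8.61, 9.76 and 12.02 FPKM in vector. The sh-NC library was far above vector (log2 fold change 1.89, SE 0.32, limma adjusted p = 0.00214), and sh-TAF15 stood beside it at 59.8 and 46.99 FPKM. APOE had 0.438 FPKM in sh-NC, against 5.29, 6.51 and 4.53 FPKM in vector (log2 fold change −2.25, SE 0.35, limma adjusted p = 0.00109). NR1H3, the LXR alpha receptor, had 47.4 and 79.2 FPKM in sh-TAF15, against 20.2 FPKM in sh-NC. Both sh-TAF15 libraries were above sh-NC, without passing the test (log2 fold change 1.49, SE 0.37, limma adjusted p = 0.256).

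In fatty acid storage, PLIN2, DGAT1, AGPAT2 and MGLL fell in sh-NC. PLIN2, which coats lipid droplets, had 0.287 FPKM in sh-NC, against 29.5, 27.4 and 31.6 FPKM in vector. The sh-TAF15 libraries were also far below vector, at 0.731 and 0.586 FPKM, and the log2 fold change of sh-NC against vector was −4.67 (SE 0.42, limma adjusted p = 1.07e-05). DGAT1, which completes triglycerides, had 7.71 FPKM in sh-NC, against 25.8, 34.1 and 28.1 FPKM in vector. AGPAT2, an acyltransferase, had 37.5 FPKM in sh-NC, against 102, 127 and 94.4 FPKM in vector. MGLL, a monoglyceride lipase, had 26.7 FPKM in sh-NC, against 47.95, 48.97 and 77.6 FPKM in vector. All 3 lay below every vector library, with log2 fold changes of −1.95 for DGAT1, −1.66 for AGPAT2 and −1.23 for MGLL. SLC25A1, the citrate carrier that feeds ACLY, had 38.2 FPKM in sh-NC, against 83.7, 86.8 and 63.6 FPKM in vector and also fell (log2 fold change −1.17, SE 0.32, limma adjusted p = 0.0346). ACADS, of fatty acid oxidation, fell too (log2 fold change −1.36, SE 0.33, limma adjusted p = 0.0180). DGAT1, AGPAT2, SLC25A1 and ACADS had transcript GC of 63.2%, 65.9%, 65.6% and 64.6%, and APOE had 68.5%. MGLL had 58.0% and PLIN2 48.9%. Over all genes above 60% GC the median log2 fold change of sh-NC against vector was −0.51. The part of GC in these calls was not tested.

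Other genes of lowest p in these lists did not pass the test. With TIF1γ they were ACAT1 (−0.49), LPIN1 (−0.82), MBTPS2 (−0.77), NR1H2 (0.63), NR1H3 (0.71), NUS1 (−0.90), RABGGTB (−0.81), HSD17B12 (−1.14), HACD3 (−0.65), ACSL3 (−0.79), PNPLA2 (0.65), ACADS (0.66) and ACADM (−0.75), as log2 fold changes. With sh-TAF15 they were INSIG2 (−0.47), APOE (0.81), RABGGTA (0.55), SLC25A1 (1.02), SCD5 (0.75), LIPE (−0.96), DGAT1 (0.78), ETFB (0.73) and DECR1 (0.61). In sh-NC against vector RABGGTA (−0.78) and PGGT1B (0.69) had the lowest p of the isoprenoid branch enzymes.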

How the data were processed

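The deposited values are FPKM per gene and library, and how the authors computed them is not given in the sources used here. The submitters' processing notes name cutadapt 1.9.1, HISAT2 2.0.1, HTSeq 0.6.1 and the GRCh37 genome. Per the labels, poly(A) selection or ribosomal RNA removal came before library preparation. No read totals were given, so absolute depth is unknown. The commonest ratio of low values to those of vector replicate 1 put relative depth at 0.792 to 1.04 of that library.

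Symbols and transcript GC came from GENCODE 29, chromosomes from RefSeq, and promoter sequence from RefSeq on GRCh38.p14. The 19 genes with a 0 beside 100 FPKM or more were set aside, and genes with at least 1 FPKM in 2 libraries were kept (13907). Libraries were scaled with trimmed means of their log2 ratios to the average library (30% and 5% trimmed), and log2(FPKM + 1) was tested with limma 3.58.1 in R 4.3.3 (trend and robust), in 1 two-sided fit over all groups, with Benjamini-Hochberg adjustment over all genes and 0.05 as threshold. The pseudocount understates the change of low genes. The fit was tested on simulated data. The alternatives were another pseudocount, filter, scaling and limma setting, GC trend removal, a replicate block, the contrast's groups alone, and each library left out.

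Members and gene lists were chosen with earlier results of these data known. All members are accounted for, and other lists are named by their called genes or their 2 of lowest p, of which some are not reported here.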

Additional observations from a re-analysis of the deposited data

How the results depend on the processing

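With TIF1γ, the 0 genes of the 29 called became 4 without vector replicate 3 (range 0 to 4 over libraries left out), and their median log2 fold change of −0.06 was −0.46 with TIF1γ replicate 2 left out and 0.24 with replicate 3 left out. In sh-NC against vector, the 5 called became 3 with a filter of 0.1 FPKM, 2 without scaling, 2 with the GC trend removed, 3 with a replicate block, 3 with limma without trend and robust, and 3 to 5 with 1 library left out. TM7SF2 and FADS2 were called under all 16 alternatives that gave a value. Without scaling the median of all genes shifted to 0.16 and the split of calls was 899 higher and 782 lower, against 526 and 1002. With sh-NC left out, its comparisons gave no value.

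Over all genes, the 3 calls with TIF1γ became 5 with a pseudocount of 0.1, 8 with the 0.1 FPKM filter, 1 with a filter of 5 FPKM, 1 with the GC trend removed, 44 with the block, and 1 to 307 with 1 library left out. The 8 calls with sh-TAF15 became 21, 70, 18, 4 and 52 under those settings in that order, 3 with only the contrast's groups, and 0 to 52 with 1 library left out. The 1528 calls in sh-NC became 1000 with the block. The 6 calls in the difference of effects became 37 with the 0.1 FPKM filter, 30 with the block, and 1 to 18 with 1 library left out. The causes were not tested. Replicate numbers could not be shown to pair samples (r = 0.17 and 0.12 between TIF1γ and vector deviations, −0.37 and −0.24 between sh-TAF15 and vector), and the block called 0 of the 29 genes in the other 3 comparisons.

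The limits are 2 libraries for TIF1γ and sh-TAF15, 1 for sh-NC, and the spread within vector.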
